A study of Rattus norvegicus with 4 samples.

Results

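Fatty acid oxidation in the kidney was followed through 36 genes for the mitochondrial and peroxisomal enzymes, the carnitine shuttle and their regulators, chosen as a fixed list of symbols. All 36 were found among the 14847 named genes with a value on every array, through 86 of the 25353 array features that bear 1 gene symbol. The material was renal allograft tissue of Lewis rats that had received a kidney from a genetically different donor. In both groups the rats carried such a graft, were injected daily into a vein from the day of surgery, and were killed on day 4. One group was given a peptide that mimics apolipoprotein E (ApoE), a lipid-carrying plasma protein, at 6 mg/kg body weight, and the other a control peptide. The labels give neither the age or sex of the rats nor the donor strain, and no ungrafted kidney was analysed here.

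Each of 4 two-colour Agilent arrays compared RNA of 1 ApoE-mimetic graft with RNA of 1 control graft, so every value is a log ratio, taken to be in log2 because the base is not given, and no level was available. By the labels, the ApoE-mimetic sample was the Cy5 channel of replicates 1 and 3 and the Cy3 channel of replicates 2 and 4. Columns were taken to be Cy5 over Cy3, the values of replicates 2 and 4 were turned, and each array was centred on its median gene, so a positive value means more transcript with the ApoE-mimetic peptide. Which channel is the numerator is not given, so each limma log2 ratio is also given for columns that already hold ApoE-mimetic over control, a reading that changes the sign of replicates 2 and 4. If Cy3 is the numerator, every sign turns. Replicates 1 and 3 share their dyes, but their columns had a Pearson correlation of -0.238 over all features. It was -0.657 over the 13363 that gave a usable signal on all arrays (neither dim nor saturated, as told from repeated values). This leaves the direction unsettled. Over the same 13363 features replicates 2 and 4, which also share their dyes, had -0.043. Columns of opposite dyes had -0.426 (replicates 1 and 2), -0.267 (3 and 4), 0.393 (1 and 4) and 0.423 (2 and 3). Turning changes the sign of these last correlations. Over usable features, whole turned arrays 1 and 2 thus correlated positively, as did 3 and 4. Replicate 4 stood apart, with an SD of 1.26 against 0.87 to 0.89 and a median that ran from -0.81 in the first 10 grid columns of the array to 0.45 in the last 10.

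Fatty acids enter this pathway as acyl-CoA, cross the inner mitochondrial membrane as carnitine esters, and are shortened in repeated cycles of dehydrogenation, hydration, a second oxidation and thiolysis. Peroxisomes shorten very long and branched chains first. The nuclear receptor PPARA switches on many of these genes, and the proximal tubule, which reabsorbs most of the filtered solute, relies on fatty acids for much of its energy. In whole-graft RNA, fewer cells of a type and less RNA per cell cannot be told apart.

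Promoter windows are shown for 4 enzyme genes whose values, given further on, were low on replicates 1 and 2 and high on 3 and 4, as in most of the pathway over features with a usable signal (for Hadha, 2 of its 4). Hadha and Hadhb encode the subunits of the trifunctional protein and lie head to head, so that their RefSeq windows (GRCr8) overlap by 200 bases read on opposite strands. The half-site AGGTCA, which PPARA and other nuclear receptors bind, is in capitals where it occurs on either strand (TGACCT on the opposite one). The windows lie at chr6:31907551-31907850 (plus strand) for Hadha, chr6:31907451-31907750 (minus) for Hadhb, chr1:204333457-204333756 (minus) for Echs1 and chr3:110329477-110329776 (minus) for Cat.
Hadha: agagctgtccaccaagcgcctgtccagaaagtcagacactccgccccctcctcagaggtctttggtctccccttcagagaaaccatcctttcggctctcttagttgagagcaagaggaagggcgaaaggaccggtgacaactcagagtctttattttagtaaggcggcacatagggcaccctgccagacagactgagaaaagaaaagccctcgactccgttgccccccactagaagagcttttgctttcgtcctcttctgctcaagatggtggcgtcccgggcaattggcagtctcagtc
Hadhb: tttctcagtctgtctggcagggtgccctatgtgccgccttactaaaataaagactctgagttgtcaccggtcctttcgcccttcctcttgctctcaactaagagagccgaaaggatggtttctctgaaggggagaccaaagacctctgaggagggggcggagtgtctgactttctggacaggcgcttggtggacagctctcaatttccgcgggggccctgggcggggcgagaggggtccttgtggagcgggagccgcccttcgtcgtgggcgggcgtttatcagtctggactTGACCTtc
Echs1: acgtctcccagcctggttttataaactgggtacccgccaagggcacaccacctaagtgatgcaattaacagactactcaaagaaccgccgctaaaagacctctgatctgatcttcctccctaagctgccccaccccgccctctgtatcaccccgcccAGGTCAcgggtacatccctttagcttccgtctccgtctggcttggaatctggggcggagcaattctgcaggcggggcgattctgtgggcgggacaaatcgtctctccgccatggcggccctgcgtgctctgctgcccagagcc
Cat: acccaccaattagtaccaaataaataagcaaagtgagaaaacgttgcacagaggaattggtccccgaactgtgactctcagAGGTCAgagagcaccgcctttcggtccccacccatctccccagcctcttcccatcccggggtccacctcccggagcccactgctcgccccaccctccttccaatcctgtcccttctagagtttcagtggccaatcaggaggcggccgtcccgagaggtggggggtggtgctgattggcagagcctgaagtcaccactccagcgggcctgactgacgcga

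Of the 36 genes, 32 had a window of 300 bases in the RefSeq table, and 8 of these held the half-site on either strand (25%), against 15.7% of all 27457 windows. Besides Hadhb, Echs1 and Cat these were Acad11, Acadvl, Eci1, Eci2 and Hsd17b4. The direct repeat AGGTCANAGGTCA, in which a half-site follows another after 1 base, was in 0 of the 32 windows and in 0.0583% of all. These are matches of letters within short windows.

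None of the 36 genes passed the test between the peptides, but most lay on 1 side of the median gene on 3 of the 4 arrays. On replicate 1 their median was -0.60 relative to the array's median gene, with 33 of 36 below it, and on replicate 2 it was -0.50, with 28 of 36 below. Replicate 3 had a median of 0.43, with 29 of 36 above, and replicate 4 had 0.13, with 22 of 36 above. On replicate 4 the genes were split, with quartiles of -0.553 and 0.652 beside -0.744 and 0.647 for all genes. By the median, transcripts of the pathway were lower in the ApoE-mimetic graft of 2 pairs and higher in that of the other 2, by little on replicate 4. The mean of the 4 medians was -0.14 ± 0.50 (SD, n = 4), and 0.05 with columns taken as already turned. The ratio of a single array also holds any dye effect, and 4 arrays are too few for an exact sign-flip test to reach 0.05.

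**Figure D1:**
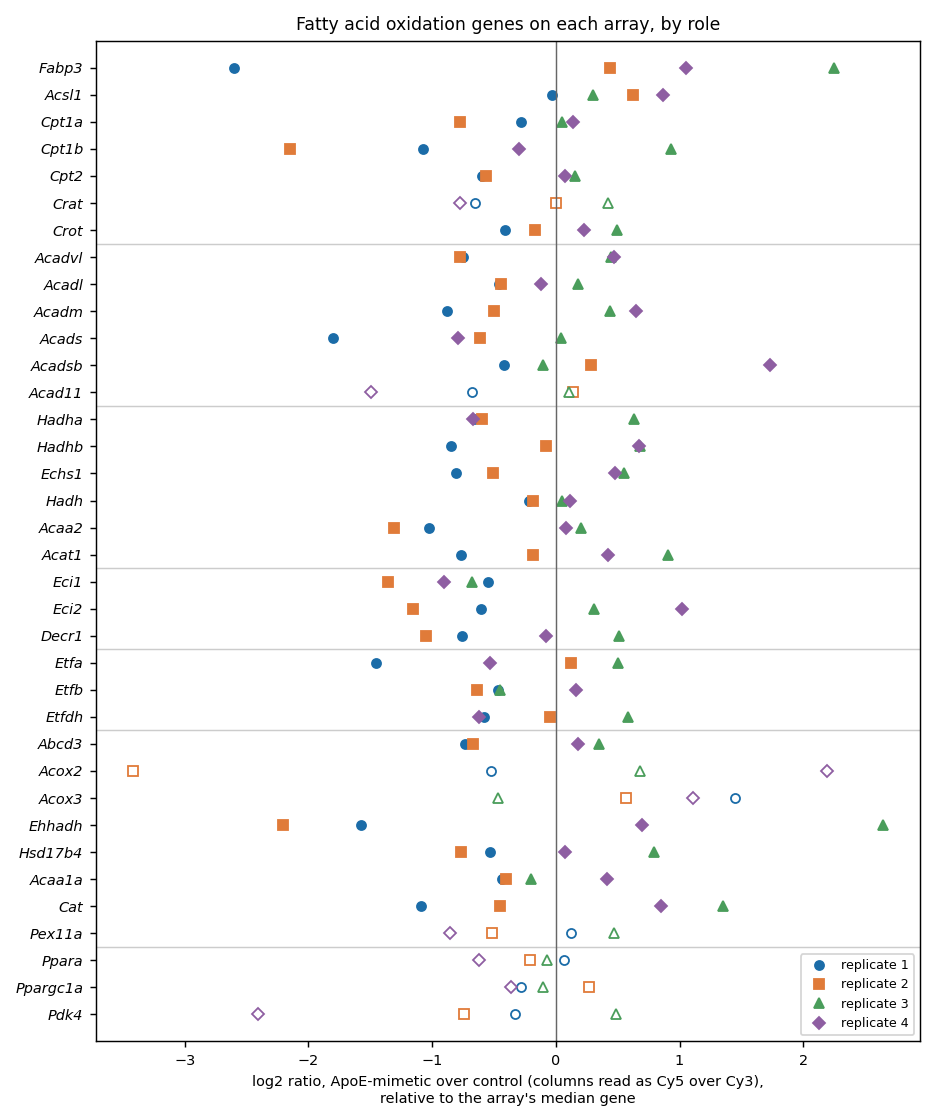
Log2 ratio of each of the 36 genes on the 4 arrays, ApoE-mimetic over control with columns read as Cy5 over Cy3, relative to the array's median gene; lines separate the roles, and open symbols mark the 8 genes with no feature that was neither dim nor saturated. For most genes replicates 1 and 2 lie to the left of 0 and replicate 3 to the right, with 33, 28 and 29 of 36 genes on those sides.

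None of the 36 genes passed at an adjusted p under 0.05 by limma, and neither did any other gene (0% of 14847). The lowest adjusted p among the 36 was 0.9999, and 0.9995 with columns taken as already turned, where again 0% of all genes passed. At an unadjusted p under 0.05 there was 1 of the 36 against 3.39% of all genes, and 0 against 3.06% with columns taken as already turned. The limma log2 ratio was below 0 for 28 of the 36 and had a median of -0.18, where all genes had -0.02. With columns taken as already turned, 16 of the 36 were below 0. Leaving out replicate 1 brought the number below 0 to 16 and the mean of the medians to 0.02, and leaving out replicate 3 brought them to 33 and -0.33. Without replicate 2 they were 18 and -0.01, and without replicate 4, the array that stood apart, 31 and -0.22.

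Few of the genes kept a side across the 4 pairs. Only Eci1 was below the median gene on all 4 arrays, where 5.12% of all genes were, and 0 of the 36 were above it on all 4, where 4.92% were. With columns taken as already turned the count below was 1, Acadsb, against 5.54%, and the count above was 1, Pex11a, against 5.89%. The commonest arrangement, noticed after the values were seen, was below on replicates 1 and 2 and above on replicates 3 and 4. It held for 16 of the 36 against 9.38% of all genes, and the opposite arrangement for 0 of the 36 against 8.24%.

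Many features were taken to be dim because their values were repeated exactly between features, and no level was available to check this. For 28 of the 36 genes at least 1 feature was neither dim nor saturated on any array, and is called bright here. Over those features the medians were -0.78, -0.50, 0.44 and 0.42 on replicates 1 to 4, beside -0.20, 0.03, -0.02 and 0.10 for the 6731 genes that have such a feature. All 28 were below the median gene on replicate 1 and 25 on replicate 2, while 27 were above it on replicate 3 and 25 on replicate 4. The median gene is that of all 14847 genes, and 4603, 3154, 3492 and 2630 of the 6731 were below it on replicates 1 to 4. The arrangement named above held for 21 of these 28, against 17.3% of the 6731 genes, and its opposite for 0 against 7.41%. The 8 genes without such a feature were Crat, Acad11, Acox2, Acox3, Pex11a, Ppara, Ppargc1a and Pdk4, and only Acox2 of these showed the arrangement.

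Entry of fatty acids into mitochondria is set by carnitine palmitoyltransferase 1, of which Cpt1a encodes the liver and kidney form. Cpt1a was measured by 10 features, none dim, and stood at -0.28, -0.77, 0.05 and 0.14 on replicates 1 to 4. The SD between its 10 features was 0.18, 0.13, 0.10 and 0.20 on the same arrays, a spread that covers measurement within an array and not that between grafts or dyes. Its limma log2 ratio was -0.22 (SE 0.28, n = 4), and 0.10 with columns taken as already turned. Cpt2, which reforms acyl-CoA on the matrix side, followed Cpt1a at -0.60, -0.56, 0.15 and 0.08. Crot, the peroxisomal carnitine octanoyltransferase, had -0.41, -0.17, 0.50 and 0.23. All 3 were low on replicates 1 and 2 and high on 3 and 4.

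Cpt1b, the muscle form of the enzyme, had -1.08, -2.15, 0.93 and -0.30 over its 2 features. Over the 1 feature that was neither dim nor saturated it had -2.24, -1.34, 1.19 and 1.20. This was a wider swing than that of Cpt1a, with the same sign on each array. Of the 10 heart and skeletal muscle markers 0 had such a feature, so muscle RNA could not be followed beside it. Fabp3, a cytosolic fatty acid carrier, spanned -2.60, 0.44, 2.25 and 1.05. Acsl1, which couples fatty acids to CoA, had -0.03, 0.62, 0.30 and 0.87, and -0.64, 0.66, 0.75 and 0.89 over its bright features. These last genes were above the median gene on replicate 2, unlike most of the pathway, and their limma log2 ratios were 0.28 (SE 0.83) and 0.44 (SE 0.24). With columns taken as already turned both changed sign, to -0.46 and -0.31. Crat, the carnitine acetyltransferase, was dim, with values between -0.77 and 0.42.

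The acyl-CoA dehydrogenases open each mitochondrial cycle and are named for the chain length they prefer. Acadvl, for very long chains, had -0.75, -0.77, 0.45 and 0.47 on replicates 1 to 4. Acadm, for medium chains, had -0.88, -0.50, 0.43 and 0.65. Acadl, for long chains, had smaller values of -0.46, -0.44, 0.18 and -0.12. All 3 were low on replicates 1 and 2, and the first pair was above 0 on both other arrays. Acads, for short chains, was at -1.80, -0.61, 0.04 and -0.79, and gave a limma log2 ratio of -0.79 (SE 0.38), which was -0.09 with columns taken as already turned. Over its 1 bright feature these were -0.35 and -0.08. Acadsb, for short branched chains, had -0.42, 0.28, -0.10 and 1.73, and -0.84, 0.01, 0.52 and 0.92 over its bright feature. Acad11, which handles longer substrates, had no bright feature and lay between -1.50 and 0.14.

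The subunits of the trifunctional protein, whose promoter windows are printed above, complete the cycle for long chains. Hadhb, with 1 feature, had -0.85, -0.08, 0.68 and 0.67. Hadha had -0.66, -0.60, 0.63 and -0.67 over 4 features, and -0.63, -0.43, 0.22 and 0.19 over the 2 that were neither dim nor saturated. The replicate 4 value of Hadha thus changed side with its dim features, and over bright features both subunits were low on replicates 1 and 2 and high on 3 and 4. Echs1, the short-chain hydratase, had -0.80, -0.50, 0.55 and 0.48. Hadh, the short-chain hydroxyacyl-CoA dehydrogenase, had -0.22, -0.18, 0.05 and 0.12, and -1.09, -0.74, 0.09 and 0.50 over its bright features. Both kept that order of arrays.

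Thiolases release acetyl-CoA at the end of the cycle. Acaa2 had -1.03, -1.31, 0.20 and 0.08, with a limma log2 ratio of -0.51 (SE 0.38) and 0.10 with columns taken as already turned. Acat1, which also serves ketone body use, had -0.77, -0.18, 0.91 and 0.42. All 6 genes of the hydratase, dehydrogenase and thiolase steps were below the median gene on replicates 1 and 2 and above it on replicate 3.

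The auxiliary enzymes that let unsaturated chains pass include Eci1, Eci2 and Decr1. Eci1 had the smallest unadjusted p of the 36 genes, 0.0187, with -0.55, -1.35, -0.67 and -0.91 and a limma log2 ratio of -0.87 (SE 0.25, n = 4; adjusted p = 0.9999 by limma). That value rested on dim features: over its 1 bright feature of 3, Eci1 had -0.63, -0.67, 0.31 and 0.51, and a log2 ratio of -0.12. With columns taken as already turned the log2 ratio was 0.26 over all features and -0.04 over the bright one. Eci2 had -0.60, -1.15, 0.31 and 1.02, and Decr1 had -0.76, -1.05, 0.51 and -0.08. Over bright features all 3 were low on replicates 1 and 2 and high on 3 and 4.

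Electrons from the dehydrogenases pass through electron transfer flavoprotein, made of Etfa and Etfb, to its oxidoreductase Etfdh. Over the bright feature of each, Etfa had -0.35, -0.16, 0.47 and 0.33, and Etfdh had -0.75, -0.30, 0.45 and 0.06. Etfb had -0.88, -0.95, 0.25 and -0.11, which put it below 0 on replicate 4. Over all features the limma log2 ratios were -0.34 (SE 0.41) for Etfa, -0.35 (SE 0.27) for Etfb and -0.17 (SE 0.32) for Etfdh, each within 2 SE of 0. With columns taken as already turned they were -0.14, -0.11 and 0.17, so that of Etfdh changed sign.

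Over bright features the 5 peroxisomal genes had a median SD over arrays of 0.698, beside 0.700 for all 28 genes, and Ehhadh stood out among them. Ehhadh, the bifunctional enzyme and a classic PPARA target in rodents, had -1.58, -2.21, 2.64 and 0.70, a span matched, among the genes with a bright feature, only by Fabp3. Its limma log2 ratio was -0.11 (SE 0.87), and 0.64 with columns taken as already turned. Leaving out replicates 1 to 4 in turn gave 0.95, 0.62, -1.17 and -0.84. Cat, which encodes catalase and removes the hydrogen peroxide made by peroxisomal oxidation, had -1.09, -0.45, 1.35 and 0.85. Both genes thus lay farther from 0 than the pathway's median in every pair, on its side, except Cat on replicate 2.

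Abcd3, a peroxisomal membrane transporter of acyl-CoA, had -0.73, -0.67, 0.35 and 0.18. Hsd17b4, the other bifunctional enzyme, had -0.53, -0.76, 0.80 and 0.08. Acaa1a, the peroxisomal thiolase, had -0.43, -0.41, -0.20 and 0.41. The first pair kept the pathway's order and Acaa1a departed from it on replicate 3. Acox2 and Acox3, oxidases of branched chains, were dim and spread from -3.41 to 2.19 and from -0.46 to 1.45, and Pex11a, which promotes peroxisome division, was dim with values from -0.86 to 0.47.

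The regulators could not be followed in this way, because no feature of Ppara, Ppargc1a or Pdk4 was free of dim values. Ppara had 10 features, and the SD between them was 0.56, 0.69, 0.61 and 1.94 on replicates 1 to 4, against means of 0.07, -0.21, -0.07 and -0.62. The SD between features was larger than the size of their mean on all 4 arrays for Ppara, and on replicates 3 and 4 for Cpt1a. Ppargc1a, a coactivator of mitochondrial genes, lay between -0.37 and 0.26. Pdk4, a kinase that shuts off glucose oxidation when fatty acids are burned, had -0.33, -0.74, 0.49 and -2.41, with a limma log2 ratio of -0.75 (SE 0.38) and 0.83 (SE 0.38) with columns taken as already turned.

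**Figure D2:**
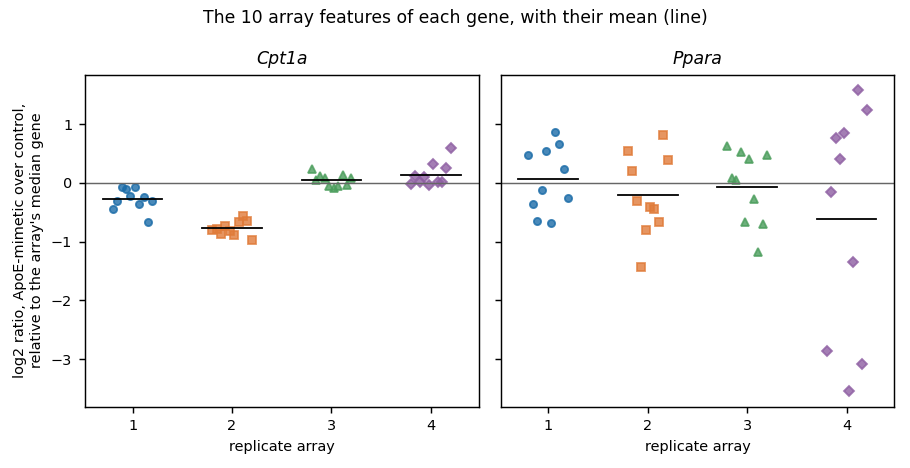
Log2 ratio of the 10 features of Cpt1a (left) and of Ppara (right) on each replicate array, ApoE-mimetic over control with columns read as Cy5 over Cy3, relative to the array's median gene, with black lines at the means. The features of Cpt1a lie close together, with SDs of 0.10 to 0.20, and those of Ppara are scattered, with SDs of 0.56 to 1.94.

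**Figure D3:**
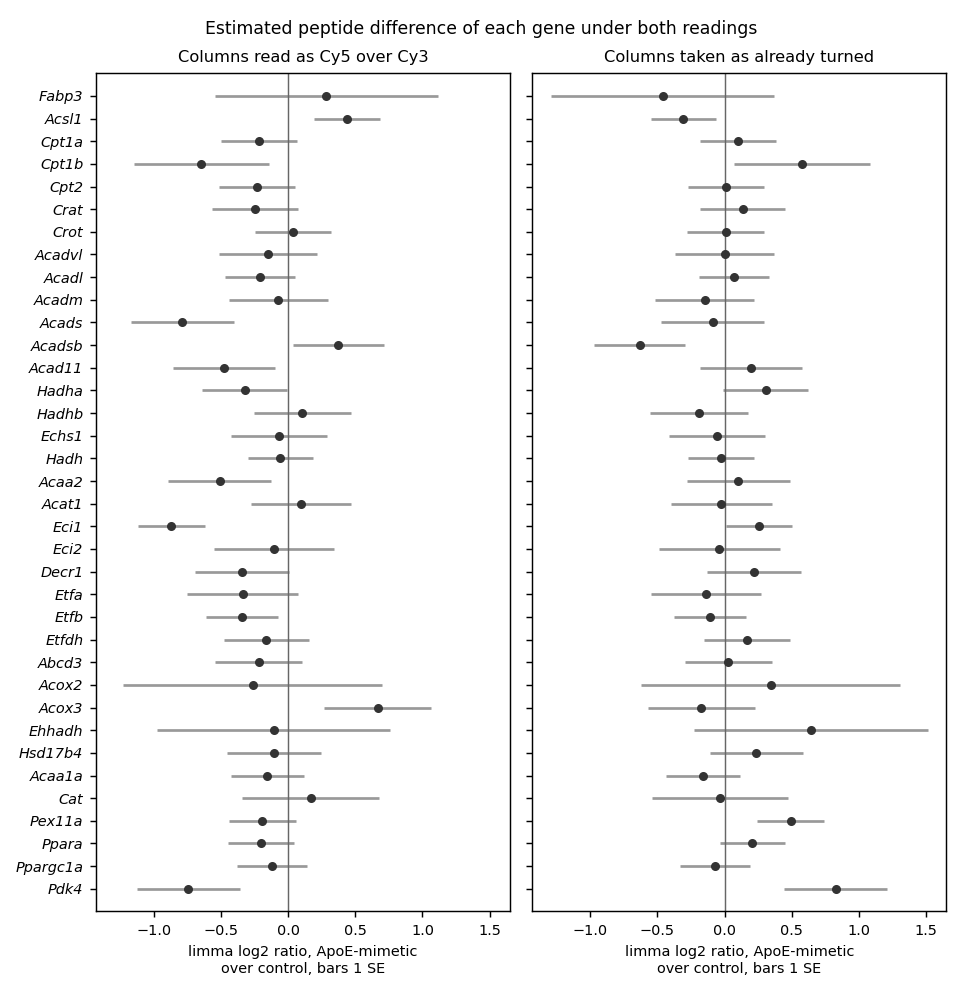
Limma log2 ratio, ApoE-mimetic over control, of each of the 36 genes (points) with 1 SE (bars, n = 4 arrays), for columns read as Cy5 over Cy3 (left) and for columns taken as already turned (right). On the left 28 of 36 points are below 0 and on the right 16, and 0 passed the test in either panel.

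Other genes of the pathway, listed apart from the 36, had medians on the same sides. The 33 measured further fatty acid oxidation genes had medians of -0.59, -0.34, 0.35 and 0.18 on replicates 1 to 4, and 0 of 33 passed the test in either direction. Of these, 13 of 33 were low on replicates 1 and 2 and high on 3 and 4, against 9.38% of all genes. Acsl3, another acyl-CoA synthetase, had -0.81, -0.34, 0.87 and 0.18. Slc25a20, the carnitine carrier of the inner membrane, had -0.36, -0.24, -0.15 and 0.25 over 11 features. Over its 1 bright feature it had -0.48, -0.59, -0.17 and -0.04. Acsl4, which prefers arachidonate, had -0.11, -0.12, 0.07 and -0.68, close to the median gene on most arrays. Among the 4 measured ketone body enzymes 0 passed, with Oxct1, which activates acetoacetate, at -0.91, 0.40, 0.69 and 0.04.

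By the median, the respiratory chain parted from fatty acid oxidation on replicate 2. Its 18 measured subunits had medians of -0.49, 0.06, 0.22 and 0.14, and the 12 peroxisome assembly genes had -0.39, 0.07, 0.26 and 0.11. Both medians were low on replicate 1 alone, whereas that of the oxidation genes was low on replicates 1 and 2. Over bright features, 17 subunits had medians of -0.58, 0.01, 0.36 and 0.43. Low on replicates 1 and 2 and high on 3 and 4 were 8 of these 17, and 3 of 9 peroxisome assembly genes. Among all genes with bright features 17.3% were. Of either list 0 genes passed the test, and the difference between lists was not tested. Ndufa9, a subunit of complex I, showed this split with -1.09, 0.82, 0.43 and 0.08. Over bright features Ndufa4 and Ndufb5, also listed subunits, were instead low on replicates 1 and 2 and high on 3 and 4. Their values were -0.95, -0.20, 0.50 and 0.32 for Ndufa4 and -0.67, -0.06, 0.42 and 0.24 for Ndufb5. Pyruvate dehydrogenase complex genes and their kinases had medians of -0.24, 0.17, 0.15 and 0.10, and genes of fatty acid and triglyceride synthesis had -0.28, 0.09, 0.16 and -0.09, with 0 of 10 and 0 of 11 called.

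PPARA target genes outside the pathway were most shifted on replicate 2. Their medians over 16 genes were 0.08, -1.11, 0.19 and -0.33, and -0.97, -1.21, 0.93 and 0.37 over the 11 with bright features, with 0 called. Cyp4a2, a kidney enzyme that hydroxylates the far end of fatty acids, had -1.71, -2.12, 1.73 and 0.95. It had the sign of Ehhadh on each array, but was nearer 0 than Ehhadh on replicate 3 (1.73 against 2.64). Cyp4a1 had -1.19, -1.02, 0.91 and -0.94, and Angptl4, an inhibitor of lipoprotein lipase, ran differently at 0.48, -0.49, -0.70 and -1.18. The 16 partner and co-regulator genes had medians between -0.09 and 0.06 on the 4 arrays, with 0 called by limma; Esrra, a receptor that drives mitochondrial genes, had -0.49, 0.05, 0.11 and 0.20. At an unadjusted p under 0.05 by limma there were 2 of the 16 PPARA targets (Fabp4 and Creb3l3, named after their values were seen), 1 of the 16 partner genes (Rxrb, named likewise) and 0 of the other lists of metabolic genes, where 3.39% of all genes were. Neither of these PPARA targets had a bright feature, and over bright features the count was 0 of 11. With columns taken as already turned the counts were 2 PPARA targets, 0 partner genes, 1 further oxidation gene and 1 peroxisome assembly gene, where 3.06% of all genes were.

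The medians of proximal tubule markers lay on the pathway's side on every array, farther from 0. Over 22 measured markers they were -1.33, -0.98, 1.02 and 0.71, with 20, 19, 2 and 8 of 22 below the median gene on replicates 1 to 4. Slc34a1, the sodium phosphate cotransporter of this segment, had -2.54, -1.67, 1.63 and 2.40, and Lrp2, which encodes megalin, had -1.21, -2.52, 0.64 and 1.19. Cubn, another of these markers, had -0.34, -1.66, 1.06 and -0.65, and so was on the other side on replicate 4. Distal tubule and collecting duct markers shared the order on replicates 1, 3 and 4, with medians of -1.11, 0.99 and 0.82, but had 0.15 on replicate 2, where the collecting duct water channel gene Aqp2 had -0.61 and the thick limb gene Umod 1.22. The part of tubule markers in the pathway's ratios was not tested.

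Leucocyte markers mostly ran the other way. The 14 monocyte and macrophage markers had medians of 0.54, 0.60, -0.98 and -0.46, opposite in sign to the pathway on all 4 arrays, with 0, 2, 13 and 11 of 14 below the median gene. Over the 12 with bright features the medians were 0.55, 0.70, -1.06 and -0.09, with 6 of 12 below on replicate 4 and so no side kept by most of them on that array. The 16 measured T cell markers had 0.63, 1.67, -1.28 and 1.39, opposite on replicates 1 to 3 and on the same side on replicate 4. At an unadjusted p under 0.05 by limma there were 3 of 16, against 3.39% of all genes, and 0 were called. With columns taken as already turned there were again 3 of 16, against 3.06%. The mean of the T cell medians was 0.60, and changed side to -0.93 with columns taken as already turned. Cd3e, a CD3 chain of the receptor complex, had 0.85, 1.59, -1.36 and 1.43. The 6 measured adipocyte markers had medians between -0.35 and -0.03. Over the 3 with bright features the medians were 0.32, -0.07, -1.05 and -0.39. The hepatocyte markers had -0.44, -0.42, 0.61 and 0.51. Of these, 2 of 8 had a bright feature, Cyp2e1 among them, a gene that kidney tubules also express. Bright features were found for 19 of the 22 proximal tubule markers and 8 of the 12 distal ones. They were also found for 12 of the 14 monocyte and macrophage markers and 12 of the 16 T cell markers, beside 6731 of all 14847 genes. The part of these cells in the pathway's ratios was not tested.

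**Figure D4:**
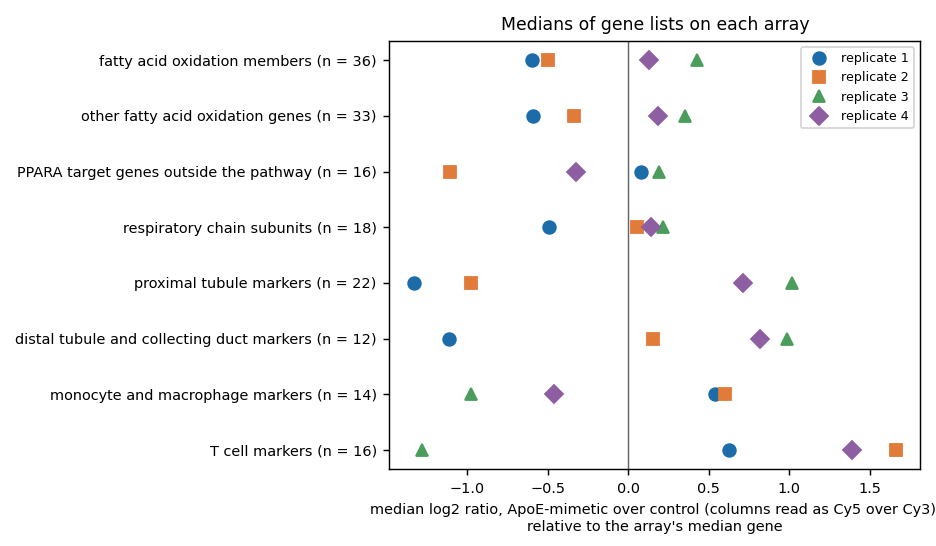
Median log2 ratio of 8 gene lists on each replicate array, ApoE-mimetic over control with columns read as Cy5 over Cy3, relative to the array's median gene; n is the number of genes measured. The 36 fatty acid oxidation genes lie on the side of the proximal tubule markers on all 4 arrays (-0.60, -0.50, 0.43 and 0.13 against -1.33, -0.98, 1.02 and 0.71), and the medians of monocyte and macrophage markers lie opposite, on replicate 4 at -0.46 over all features and -0.09 over bright ones.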

How the data were processed

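The deposited table holds a log ratio of both channels, taken here as log2, for 45220 features on 4 two-colour Agilent arrays. Per the labels, the arrays form a balanced dye swap of 4 biological replicates; for the scanner, background correction, normalization, log base and numerator, the sources used here state nothing. The platform annotation named 25353 features with 1 symbol, several for 48 and none for 19819; 25306 were found by gene number in RefSeq (GRCr8). Features of a gene were averaged on each array, genes lacking a value on some array (24) were left out, and each array was centred on its median gene. A feature counted as dim where more than 2 features held its value on an array, and as saturated at the shared value next to 0; bright means neither, on all 4 arrays. All 14847 genes were fitted with limma 3.58.1 in R 4.3.3 (lmFit, eBayes; treatment and dye coefficients; two-sided; Benjamini-Hochberg, threshold 0.05), after a test on simulated data. SEs rest on the spread between arrays of 1 dye orientation, drawn by eBayes towards a spread shared by all genes. Precision is limited by there being 4 arrays. The genes and lists were chosen with earlier results of these data known. Genes with bright features are given on every array, dim ones by range; from each other list, up to the first 3 genes with bright features were open to naming. The alternatives are in the closing section.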

Additional observations from a re-analysis of the deposited data

Results flagged for a closer look

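Of 60 sets of 4 array values examined, for the 36 genes, their median and 23 gene lists, 3 had a highest or lowest array farther from the rest than Dixon's critical value for 4 arrays allows, where chance alone would mark about 5% of sets. For Hadha the gap took 0.948 of the range, with replicate 3 at 0.63 and the others between -0.67 and -0.60; over its bright features the values were -0.63, -0.43, 0.22 and 0.19. The median of adipocyte markers had a ratio of 0.856, with replicate 4 lowest at -0.35. Over the 3 of these markers with bright features replicate 3 was lowest, at -1.05. The median of the 4 measured erythroid markers had a ratio of 0.832, with replicate 2 lowest at -1.23. Only 1 of these, Slc4a1, had a bright feature, with -2.05, -1.57, 1.13 and 1.47 and so replicate 1 lowest.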

How the results depend on the processing

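The count of 0 genes called at an adjusted p under 0.05 held under every alternative run (values uncentred, columns taken as already turned, no dye term, dim features left out, median over features, array weights, robust eBayes, arrays scaled to equal spread, centring within stretches of 10 grid columns, and each replicate left out), with a lowest adjusted p among the 36 of 0.579, without replicate 2. The mean of the medians was -0.14 and stayed within its SD over arrays in every alternative, but changed side to 0.05 with columns taken as already turned and ranged from -0.33 to 0.02 with 1 replicate left out. The number of genes with 1 sign on all arrays was 1, and was 3 with values uncentred, 2 with columns taken as already turned, 0 of 28 with dim features left out, and 2 to 9 over the 3 arrays left without 1 replicate, where fewer arrays must share a sign. The arrangement of low replicates 1 and 2 and high replicates 3 and 4 held for 15 to 21 genes under 4 alternatives chosen after the data were seen. Of single genes, 26 of 36 changed sign with columns taken as already turned, 1 with values uncentred, 1 of 28 with dim features left out and 5 to 12 with 1 replicate left out; the cause was not tested. No paired analysis was possible because each array is already a ratio within a pair, so the 4 arrays form 1 group.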
